A study of Mus musculus with 8 samples.

Results

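Fc receptors were examined as a group of 6 genes, Fcgr1, Fcgr2b, Fcgr3, Fcgr4, Fcer1g and Fcgrt, matched by gene symbol in both deposited tables. They are 6 of the 54532 genes listed for the PTS + RS and RS libraries and 6 of the 28229 listed for the RGFP109 and NaCl libraries. RNA-seq was performed on 8 brain libraries of C57BL/6 mice collected on Day 21, with 2 libraries in each of 4 groups. The RS group received restraint stress alone, and the PTS + RS group received photothrombotic stroke of the cortex and restraint stress; the 4 libraries of these groups are labelled cortex. The RGFP109 and NaCl groups were both PTS + RS mice, given either the HDAC3 inhibitor RGFP109 (60 mg/kg under the skin once daily, for 2 weeks per the labels, while another passage of the study's text gives 21 consecutive days) or NaCl, and in each group replicate 1 is labelled cortex and replicate 2 amygdala. The study used male mice, described as around 3 months old at behavioural testing; none of these 8 libraries is from an unstressed or sham-operated mouse, and whether a library holds 1 mouse or a pool is not given in the sources used here, so the p-values measure only the spread between these libraries.

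Fc receptors bind the constant part of antibodies and link antibody-coated material to the cells that carry the receptor. Fcgr1, Fcgr3 and Fcgr4 encode the ligand-binding chains of activating IgG receptors, which signal through the gamma chain encoded by Fcer1g; its cytoplasmic tail carries the activation motif that recruits Src-family kinases and Syk. Fcgr2b encodes the inhibitory IgG receptor, whose own tail carries an inhibition motif that recruits the phosphatase SHIP, the product of Inpp5d. Fcgrt encodes the heavy chain of the neonatal Fc receptor, which pairs with beta-2-microglobulin (B2m) and returns IgG and albumin to the circulation instead of letting them be degraded. In the brain the IgG receptors are known from microglia and border macrophages, and the neonatal receptor also from vascular endothelium.

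The coding bases of the activation motif of Fcer1g and of the inhibition motif in the tail of Fcgr2b are shown because the receptors signal through them; capitals mark the tyrosine codons. The sequences are from the GENCODE M21 transcripts on GRCm38, coding bases 193 to 237 of Fcer1g and 949 to 966 of Fcgr2b.
Fcer1g: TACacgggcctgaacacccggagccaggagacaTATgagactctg
Fcgr2b: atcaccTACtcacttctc
Over the 6 whole coding sequences the activation motif was matched in Fcer1g alone, while the short inhibition motif was also matched 2 times in Fcgr1 and once each in Fcgr4, Fcer1g and Fcgrt. A match of these codons is a description and not a shown signalling site.

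Of the 6 genes, 4 lie within 276 kb of chromosome 1 on GRCm38, each with its Ensembl gene identifier in the table. Fcgr2b (ENSMUSG00000026656) spans chr1:170958617-170976547 on the minus strand and Fcgr4 (ENSMUSG00000059089) chr1:171018920-171029761 on the plus strand. Fcgr3 (ENSMUSG00000059498) spans chr1:171051174-171064935 and Fcer1g (ENSMUSG00000058715) chr1:171229572-171234365, both on the minus strand. Fcgr1 (ENSMUSG00000015947) lies at chr3:96282909-96293969 and Fcgrt (ENSMUSG00000003420) at chr7:45092990-45103851, both on the minus strand. All 6 are protein-coding genes. The coding sequences of Fcgr2b and Fcgr3 share an identical run of 129 bases, shown here because reads that fall inside it cannot be assigned to 1 of these genes. It spans 2 exons in each gene, chr1:170966674-170968081 in Fcgr2b and chr1:171054167-171057792 in Fcgr3.
Fcgr2b and Fcgr3, shared: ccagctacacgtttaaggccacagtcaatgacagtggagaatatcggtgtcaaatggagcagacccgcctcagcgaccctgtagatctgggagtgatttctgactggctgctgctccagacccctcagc
Of all 31-base words in the transcripts compared, those shared between both genes made up 7.04% for Fcgr2b and 17.7% for Fcgr3, and of all 100-base words 1.29% and 3.53%, so the separate counts of Fcgr2b and Fcgr3 are uncertain. No other pair of the 6 shared a coding run longer than 14 bases.

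The RefSeq upstream sequences (GRCm38.p6, the 250 bases before the start site) of Fcgr1, Fcgr3 and Fcgr4 are printed because these 3 members rose in PTS + RS and hold motif matches. Capitals mark the matches to 4 motifs searched on both strands of all 6 genes: GAGGAA (ETS factors such as PU.1), TTCNNNGAA (the GAS element of STAT factors), the ISRE element of interferon response factors (GAAA, any 2 bases, GAAA) and the kB element (GGG, any 2 bases, TT, any 1 base, CC). The first sequence is from chr3:96293970-96294219, the second from chr1:171059404-171059653 (the first of 2 annotated starts of Fcgr3, at which the search gave the same matches) and the third from chr1:171018676-171018925; the third is read on the plus strand and the others on the minus strand.
Fcgr1: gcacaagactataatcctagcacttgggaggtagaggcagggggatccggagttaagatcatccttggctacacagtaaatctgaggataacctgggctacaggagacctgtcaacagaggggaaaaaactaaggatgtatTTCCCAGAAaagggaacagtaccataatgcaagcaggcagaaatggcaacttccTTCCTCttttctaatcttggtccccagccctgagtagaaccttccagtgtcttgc
Fcgr3: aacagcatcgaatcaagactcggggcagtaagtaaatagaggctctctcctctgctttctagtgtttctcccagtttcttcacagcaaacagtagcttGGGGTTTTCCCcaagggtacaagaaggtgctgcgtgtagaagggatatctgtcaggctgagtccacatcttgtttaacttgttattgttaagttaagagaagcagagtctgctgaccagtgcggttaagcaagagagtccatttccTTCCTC
Fcgr4: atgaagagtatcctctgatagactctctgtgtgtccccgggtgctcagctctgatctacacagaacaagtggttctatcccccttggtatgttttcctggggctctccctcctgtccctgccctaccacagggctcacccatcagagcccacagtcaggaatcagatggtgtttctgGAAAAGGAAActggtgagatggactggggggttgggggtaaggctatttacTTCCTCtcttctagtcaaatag
GAGGAA was matched once in each of the 3, always on the strand opposite to the gene, and 28.3% of the 32851 RefSeq promoter sequences of the same 300-base length hold it. TTCNNNGAA was matched in Fcgr1 alone of the 6 (8.30% of all promoters), the ISRE letters in Fcgr4 alone (3.44%) and the kB letters in Fcgr3 alone (4.79%), there as 2 overlapping matches. Fcgr2b, Fcer1g and Fcgrt held none of these letters in the searched window. For Fcgr2b, 203 of the 250 bases before the RefSeq start site lie in exons annotated by GENCODE. Its window thus fell mostly on transcribed sequence, and sequence further upstream was not searched. A match is a description of sequence and not a shown binding site.

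The libraries held between 15902013 and 21712033 counts on genes, of which mitochondrially encoded genes took 3.59% to 4.55%. Replicates differed by more than sampling noise, with correlations of log2 CPM between 0.943 (NaCl) and 0.990 (RS). In the second experiment the cerebral cortex markers went against the tissue labels. The summed level of 10 cerebral cortex genes was 835 and 833 CPM in the libraries labelled cortex and 1449 and 1255 CPM in those labelled amygdala. Of these 10 genes 9 were higher at the amygdala label (median log2 fold change 0.85), as were 9 of 10 amygdala genes (0.62), although the amygdala genes summed to 333 and 442 CPM at the cortex label and to 329 and 341 CPM at the amygdala label. The 442 CPM, of NaCl replicate 1, came mostly from Tshz1, with 5971 counts there and 450 to 849 in the other libraries. NaCl replicate 1, labelled cortex, stood apart, with Fezf2 at 4.10 and Neurod6 at 11.7 CPM against lowest values of 35.3 and 50.8 CPM in the other 3. These libraries are therefore called by their labels only, and the Fc receptor results that rest on them are given with and without single libraries.

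To compare stroke plus stress with stress alone, PTS + RS was set against RS. Fcgr1, Fcgr2b, Fcgr3 and the shared gamma chain gene Fcer1g rose after stroke, by 5.78-fold to 8.18-fold. The scarce Fcgr4 passed the threshold as well, and Fcgrt did not pass the test. Of the 17581 genes tested, 2.12% passed the threshold with a higher level in PTS + RS (edgeR's quasi-likelihood test, adjusted p under 0.05, with a log2 difference of 1 or more), against 5 of the 6 Fc receptor genes. For these 5 genes both PTS + RS libraries lay above both RS libraries, as for 25.7% of all genes tested. CPM stands for counts scaled by each normalised library size. All 6 genes passed the filter on low counts, Fcgr4 only through its PTS + RS libraries; a gene kept in this way had to differ, so its p-value is a description, and without it the count was 4 of 5. The same holds for Fcrl1, Fgr, Pirb and Ms4a7 in the lists given further on.

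Fcer1g, the gamma chain gene, was at 46.5 and 39.5 CPM in the PTS + RS libraries and at 5.85 and 4.61 CPM in the RS libraries. Both PTS + RS libraries were high and both RS libraries low, without overlap. Its log2 fold change was 3.03 ± 0.16 (SE, n = 2 against 2, edgeR adjusted p = 3.8e-04). Fcgr3, the low-affinity activating receptor, was at 40.6 and 38.1 CPM in PTS + RS and at 6.07 and 7.57 CPM in RS. The replicates lay close together and the groups did not overlap. The log2 fold change of Fcgr3 was 2.53 ± 0.14 (edgeR adjusted p = 4.3e-04).

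Fcgr1, the high-affinity receptor that binds single IgG molecules, was at 16.8 and 11.5 CPM in PTS + RS and at 2.10 and 1.77 CPM in RS. The groups did not overlap, and PTS + RS replicate 1 was the higher of the pair. Its log2 fold change was 2.86 ± 0.26 (edgeR adjusted p = 0.0023). Fcgr4, an activating receptor for a subset of IgG subclasses, had 39 and 41 counts in PTS + RS (2.28 and 2.45 CPM) and 1 and 4 counts in RS (0.0552 and 0.252 CPM). It was the scarcest member, close to undetected in RS and similar in both PTS + RS libraries. The fitted log2 fold change was 3.93 ± 0.58 (edgeR adjusted p = 0.015), without RS replicate 1 it was 3.19 (adjusted p = 0.091) and without RS replicate 2 it was 5.25 (adjusted p = 0.022). The ratio of the summed counts, 80 against 5, was 16.1 with an exact 95% interval of 6.60 to 50.8 that covers counting error only.

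Fcgr2b, the inhibitory receptor, was at 30.2 and 21.4 CPM in PTS + RS and at 4.03 and 3.09 CPM in RS. It thus rose alongside the activating chains, again without overlap. Its log2 fold change was 2.85 ± 0.23 (edgeR adjusted p = 0.0015). The balance of activating to inhibitory chains, taken after the values were seen as the FPKM of Fcgr1, Fcgr3 and Fcgr4 together over that of Fcgr2b, was 6.06 and 7.67 in PTS + RS and 6.25 and 9.82 in RS. These ranges overlapped. Fcgrt was at 21.9 and 19.9 CPM in PTS + RS and at 20.6 and 13.3 CPM in RS. RS replicate 2 alone was low, and the groups overlapped. The log2 fold change of Fcgrt was 0.30 ± 0.21 (edgeR adjusted p = 0.51).

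**Figure D1:**
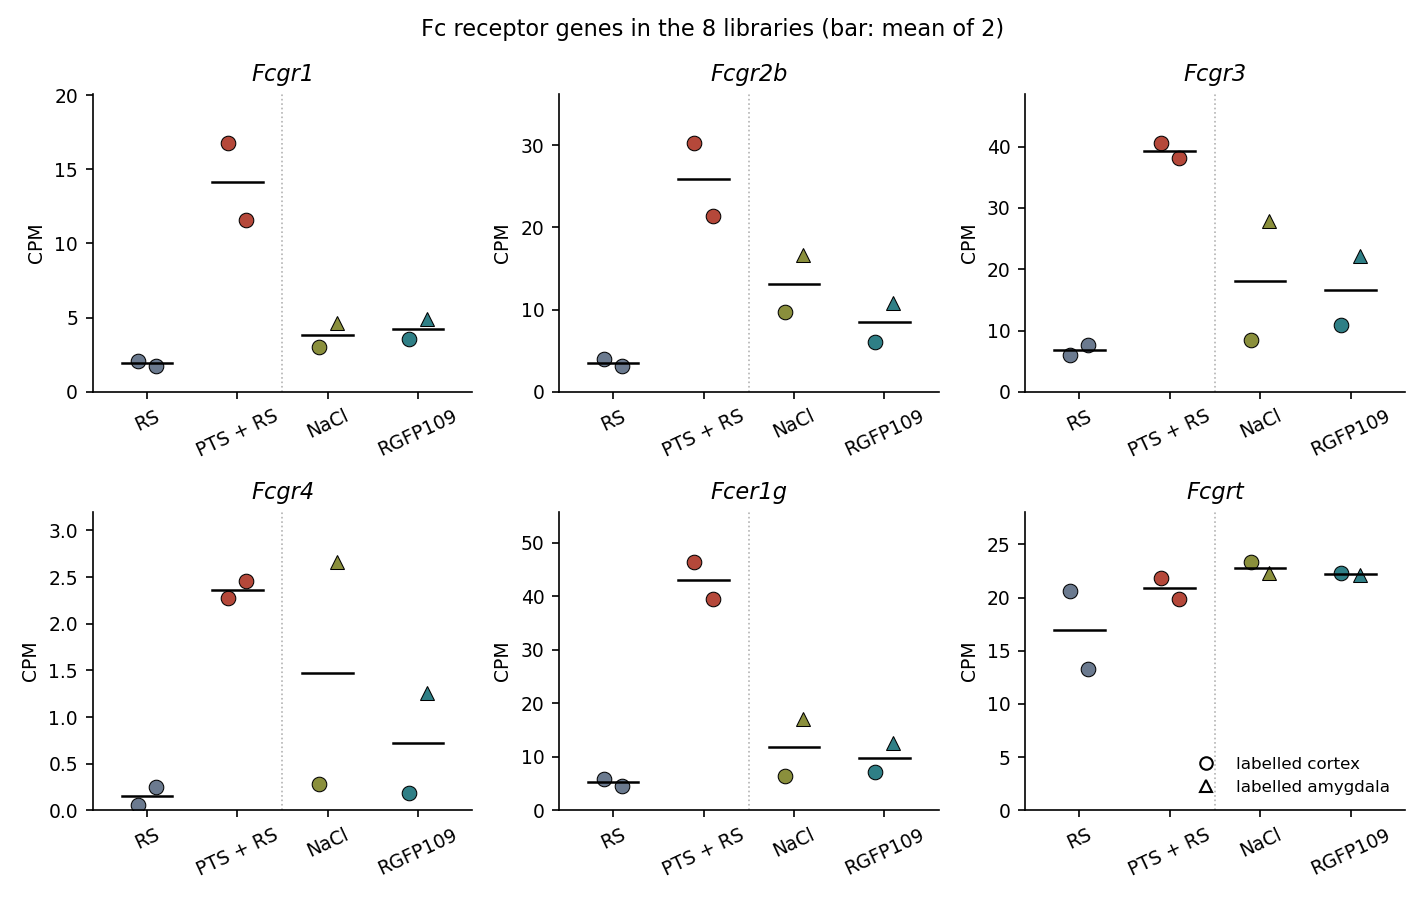
CPM (y axis, linear from 0, a separate scale per gene) of the 6 Fc receptor genes in the 2 libraries of each group, with circles for libraries labelled cortex, triangles for those labelled amygdala and a bar at the mean; the dotted line separates both tables, which were normalised separately. For 5 genes both PTS + RS points lie above both RS points, while Fcgrt lies between 13.3 and 23.4 CPM in all 8 libraries.

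Per length, the order of the members changed between the groups. In PTS + RS the deposited FPKM were highest for Fcer1g (48.8 ± 5.44, SD, n = 2), followed by Fcgr3 (22.5 ± 0.917), Fcgrt (9.86 ± 0.643), Fcgr1 (5.42 ± 1.39), Fcgr2b (4.43 ± 1.05) and Fcgr4 (1.87 ± 0.105). Only Fcgr1 and Fcgr2b overlapped as neighbours in that order. In RS, Fcgrt was first at 8.02 ± 2.46 FPKM and overlapped with Fcer1g at 5.95 ± 0.994. Fcgr3 followed at 3.91 ± 0.614 FPKM, and Fcgr1 (0.743 ± 0.0889) and Fcgr2b (0.612 ± 0.113) again overlapped. Fcgr4 was last at 0.122 ± 0.111 FPKM. The deposited FPKM rest on a gene length of 5790 bases for Fcgr2b, while its transcript used here for sequences has 3544. For Fcgr1 both lengths are 2589 bases, so the order of Fcgr1 and Fcgr2b depends on the length used.

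On chromosome 1, the higher level was not shared by the genes between the members, a comparison chosen after the values were seen. The interval from Fcgr2b to Fcer1g holds 17 listed genes, 8 of them tested, and the 4 tested genes that are no Fc receptors had log2 fold changes between -0.69 (Pcp4l1) and -0.01 (Sdhc). None of these 4 passed the threshold.

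**Figure D2:**
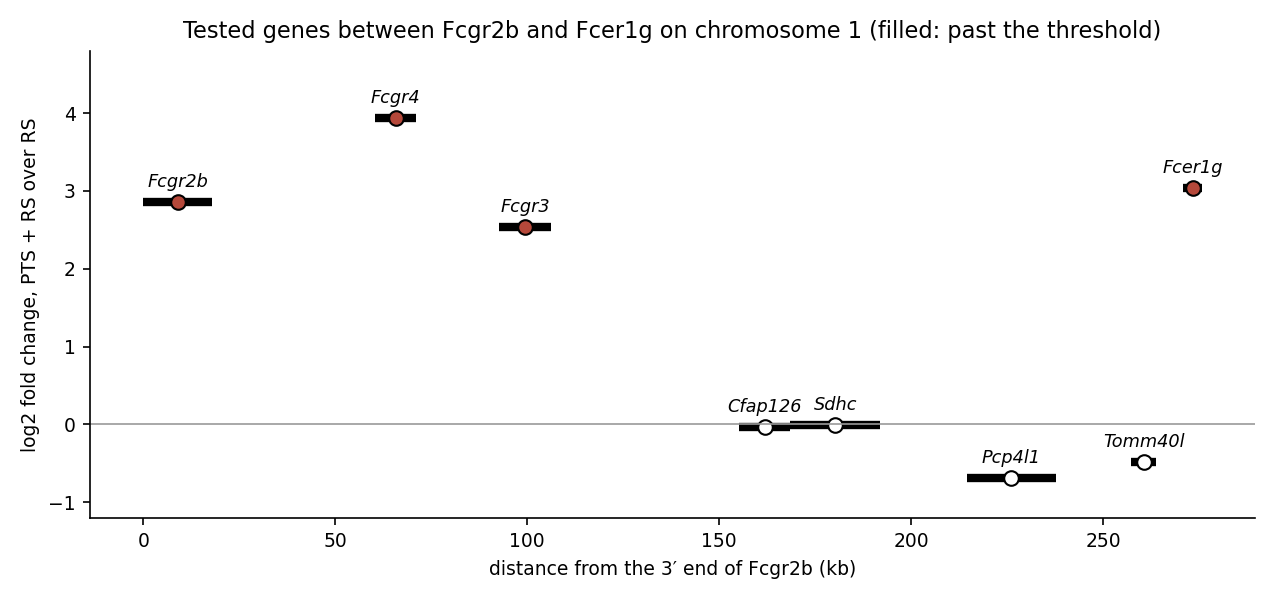
Log2 fold change of PTS + RS over RS (y axis) for the 8 tested genes between Fcgr2b and Fcer1g, placed by distance in kb from the 3′ end of Fcgr2b (x axis), with black bars for gene bodies and filled points for genes past the threshold. The 4 Fc receptor genes lie at 2.53 or higher and the 4 genes between Fcgr3 and Fcer1g between -0.69 and -0.01.

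Among receptors of other immunoglobulin classes and Fc receptor-like proteins, 5 of 13 listed genes were tested and 2 passed the threshold. Fcrls, an Fc receptor-like gene of microglia, averaged 119 CPM in PTS + RS and 21.7 CPM in RS (log2 fold change 2.45 ± 0.13, edgeR adjusted p = 3.8e-04). Fcrl1, a receptor-like gene known from B cells, had 23 and 16 counts in PTS + RS and 3 and 2 in RS, or 1.15 and 0.146 CPM on average (log2 fold change 2.91 ± 0.59, edgeR adjusted p = 0.049). Trim21, the antibody receptor of the cytosol, had a log2 fold change of 0.70 ± 0.28 and did not pass the test, nor did Fcer2a (0.07) and Fcrlb (-0.11). The IgE receptor chains Fcer1a and Ms4a2 had 0 or 1 count per library and were not tested. The list held 1 gene past the threshold without PTS + RS replicate 1, without RS replicate 1 or without RS replicate 2.

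Of the ligands, 2 of 12 listed immunoglobulin chain genes passed the filter on low counts and 1 rose. Ighm, the heavy chain of IgM, averaged 18.8 CPM in PTS + RS and 8.35 CPM in RS (log2 fold change 1.17 ± 0.15, edgeR adjusted p = 0.0088), and it was not past the threshold without RS replicate 1 or without RS replicate 2. Jchain, which joins polymeric IgM and IgA, had a log2 fold change of 0.0015. The IgG heavy chain genes Ighg1, Ighg2b and Ighg3 had no count in these 4 libraries, and Ighg2c had at most 3 counts. A count of 0 does not show absence. At 95% confidence it leaves room for an expected count of up to about 3 per library.

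Signalling genes below the receptors rose as well. All 20 listed activating genes were tested, 19 had a higher level in PTS + RS and 12 passed the threshold, with a list median log2 fold change of 1.56 against -0.0015 for all genes tested. Among Src-family kinases, Fgr had a log2 fold change of 3.51 ± 0.66 (61 and 32 counts against 7 and 1) and Lyn 1.81 ± 0.14, while Fyn, which neurons also use, was at 0.15 ± 0.08 and did not pass. Syk, the kinase that docks on the activation motif, rose by 1.16 ± 0.17 on the log2 scale. Downstream, the adaptors Lcp2 (2.56) and Blnk (1.58), the exchange factor Vav1 (2.20), the kinase Btk (2.19), the phospholipase Plcg2 (1.21), the PI3-kinase subunit Pik3r5 (1.54), the GTPase Rac2 (2.72) and the actin regulator Nckap1l (1.85) also passed. Plcg1 was at -0.03 and Pik3cd at 0.38, both short of the threshold. The count of 12 fell to 5 without RS replicate 1 and to 6 without RS replicate 2.

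Of 10 inhibitory signalling genes, 9 had a higher level in PTS + RS and 2 passed, with a median log2 fold change of 0.46. These were Inpp5d, the SHIP phosphatase that docks on Fcgr2b (1.76 ± 0.19, edgeR adjusted p = 0.0040), and Ptpn6, the SHP phosphatase of blood cells (2.09 ± 0.17, edgeR adjusted p = 0.0015). The widely expressed Ptpn11 (-0.07), Cbl (0.09) and Inppl1 (0.43) were under the fold threshold. In a list of lectin and leucocyte receptors and the adaptor Tyrobp, 3 of 8 listed symbols were tested. Not all of these receptors signal through the gamma chain. Tyrobp, the DAP12 adaptor, averaged 46.8 CPM in PTS + RS and 6.07 CPM in RS (log2 fold change 2.94 ± 0.16, edgeR adjusted p = 3.8e-04). Pirb (1.82 ± 0.48, edgeR adjusted p = 0.10) and Oscar (0.21 ± 0.26) did not pass.

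For the neonatal receptor, B2m alone of the 5 tested partners was past the threshold. It averaged 206 CPM in PTS + RS and 56.6 CPM in RS (log2 fold change 1.86 ± 0.15, edgeR adjusted p = 0.0014), beside the Fcgrt value of 0.30. B2m is also the light chain of all classical MHC class I molecules. The recycling genes Rab11a (-0.03), Rab11b (0.14) and Exoc6 (0.01) did not pass.

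Cell type markers moved with these genes. In bulk tissue, more cells of a type and more RNA per cell cannot be told apart. Of 12 microglia markers, all were higher in PTS + RS and 10 passed, with a median log2 fold change of 1.71 and summed levels of 1065 and 908 CPM in PTS + RS against 334 and 296 CPM in RS. Csf1r had a log2 fold change of 1.69 ± 0.13. Of 6 tested border macrophage markers, all were higher and Ms4a7 passed (3.89 ± 0.63; 94 and 44 counts against 2 and 7), with summed levels of 36.3 and 17.1 against 12.7 and 10.9 CPM. No border macrophage gene passed without RS replicate 1 and 4 passed without PTS + RS replicate 2. The neutrophil list, in which no gene was tested, summed to 0.934 CPM or less in each of the 4 libraries, with Ly6g and Retnlg at 0 counts. The 8 monocyte genes summed to 35.14 and 35.01 CPM in PTS + RS and to 19.4 and 21.0 CPM in RS, of which Vcan, the only one tested, made up 32.4 to 32.8 and 18.9 to 20.6 CPM. Vcan had a log2 fold change of 0.72 ± 0.11 (edgeR adjusted p = 0.017), under the fold threshold, and Ccr2 had 16 and 9 counts against 5 and 2. Astrocyte markers had a median of 0.48, with Gfap (2.27) and Aqp4 (1.01) past the threshold, and medians were 0.24 for endothelial cells, 0.22 for oligodendrocytes and -0.05 for neurons, with no gene past the threshold. The part of cell numbers in the rise of the Fc receptors was not tested.

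**Figure D3:**
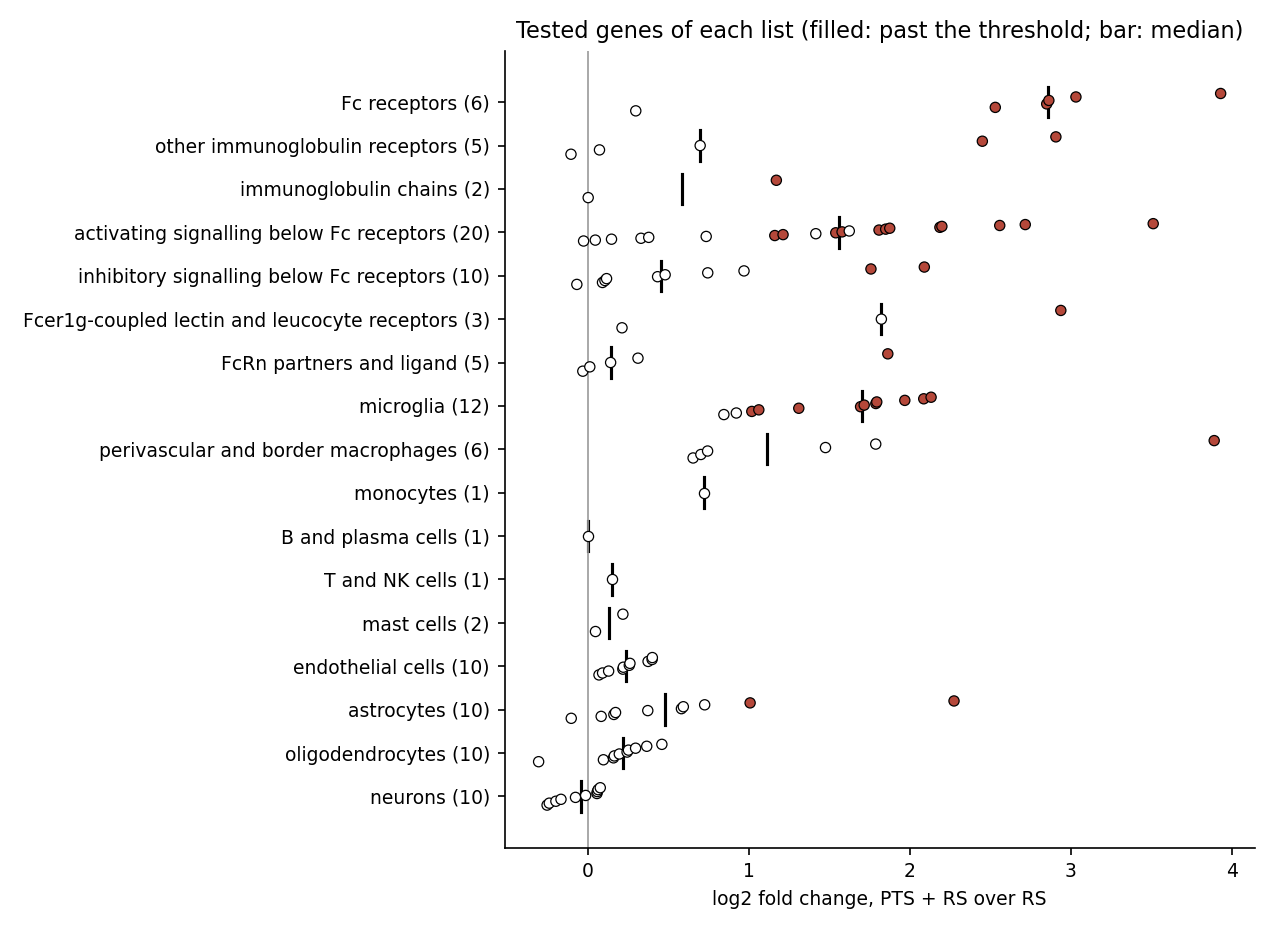
Log2 fold change of PTS + RS over RS (x axis) for every tested gene of 17 lists (rows, number tested in brackets), with filled points for genes past the threshold and a bar at the list median. The Fc receptor points other than Fcgrt lie at 2.53 or higher, to the right of the microglia median of 1.71, and the endothelial, oligodendrocyte and neuronal lists lie near 0.

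Set against the mean of the 12 microglia markers within each library, 5 Fc receptor genes were still higher in PTS + RS. The difference in log2 ratio was 1.26 for Fcgr1, 1.29 for Fcgr2b, 0.99 for Fcgr3, 1.77 for Fcgr4 and 1.49 for Fcer1g, with replicate SDs of 0.21, 0.21, 0.25, 0.65 and 0.094. Fcgrt moved the other way, by -1.19 with a replicate SD of 0.22. In all 6 cases the libraries of the groups did not overlap. Before this scaling they did not overlap for 50.2% of all genes tested, and the share on this scale was not taken. The microglia mean itself rose, so a level that stayed the same falls on this scale. For each of the 6 genes the exact two-sided permutation test gave p = 0.333, the smallest p that 2 against 2 libraries allow, so these differences in log2 ratio could not pass a test.

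To ask what RGFP109 does in stroked and stressed mice, it was compared with NaCl. The study calls it an HDAC3 inhibitor and also describes it as selective for HDAC1 and HDAC3. No Fc receptor gene passed the test in either direction, and neither did any of the 17565 genes tested (0.0% higher and 0.0% lower by edgeR, with 206 at an unadjusted p under 0.05 and no gene past the threshold by DESeq2 or limma-voom). The groups overlapped for all 6 genes, as for most genes: the libraries of the groups did not overlap for 26.6% of all genes tested.

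The levels of the 5 IgG receptor genes also differed within each group. Fcgr2b was at 6.09 and 10.8 CPM with RGFP109 and at 9.67 and 16.6 CPM with NaCl, in each case the library labelled cortex first. It was lower with RGFP109 at both labels, by -0.66 and -0.61 on the log2 scale, as were 25.4% of all genes tested. The edgeR log2 fold change was -0.63 ± 0.43 (adjusted p = 1.0). Fcgr3 was at 11.0 and 22.1 CPM with RGFP109 and at 8.48 and 27.8 CPM with NaCl, and Fcer1g at 7.10 and 12.6 against 6.43 and 17.1 CPM. For both, the library labelled cortex was higher with RGFP109 and the library labelled amygdala lower, opposite signs that 51.3% of all genes tested also had. Their log2 fold changes were -0.13 ± 0.65 and -0.25 ± 0.56.

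Fcgr1 was at 3.55 and 4.91 CPM with RGFP109 and at 3.01 and 4.62 CPM with NaCl (log2 fold change 0.15 ± 0.40). Fcgr4 had 3 and 27 counts with RGFP109 and 5 and 49 with NaCl (log2 fold change -0.98 ± 1.27), with nearly all of its counts in the libraries labelled amygdala. Fcgrt was at 22.3 and 22.2 CPM with RGFP109 and at 23.4 and 22.3 CPM with NaCl. It was the steadiest member, with a log2 fold change of -0.04 ± 0.18. Without NaCl replicate 1, the log2 fold changes of Fcgr1, Fcgr2b, Fcgr3, Fcgr4, Fcer1g and Fcgrt were -0.13, -0.97, -0.75, -1.82, -0.80 and -0.01. Without NaCl replicate 2, Fcgr3, Fcgr4 and Fcer1g were at 0.98, 1.39 and 0.63 instead, so the direction of these 3 rested on which NaCl library was kept. Each of these fits sets both tissue labels of RGFP109 against 1 label of NaCl, so treatment and label cannot be told apart there. With all libraries kept and the replicate number as a block, Fcgr3, Fcgr4 and Fcer1g were at 0.0092, -0.92 and -0.16.

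The lists around the receptors did not pass either. Of 20 activating signalling genes 8 were higher with RGFP109, with a median of -0.13, of 10 inhibitory genes 4, with a median of -0.04, and of 12 microglia markers 11, with a median of 0.17, beside -0.016 for all genes tested. With 1 library left out these medians ranged from -0.41 to 0.39, from -0.26 to 0.16 and from -0.07 to 0.33. The activating median was 0.39 without NaCl replicate 2 and -0.39 without NaCl replicate 1, and the inhibitory one 0.15 and -0.26, so their direction rested on which NaCl library was kept. The inhibitory median was also 0.16 without RGFP109 replicate 1, and the microglia median was -0.07 without NaCl replicate 1. Leaving out 1 library leaves its group with 1 tissue label, so treatment and label cannot be told apart in these fits.

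**Figure D4:**
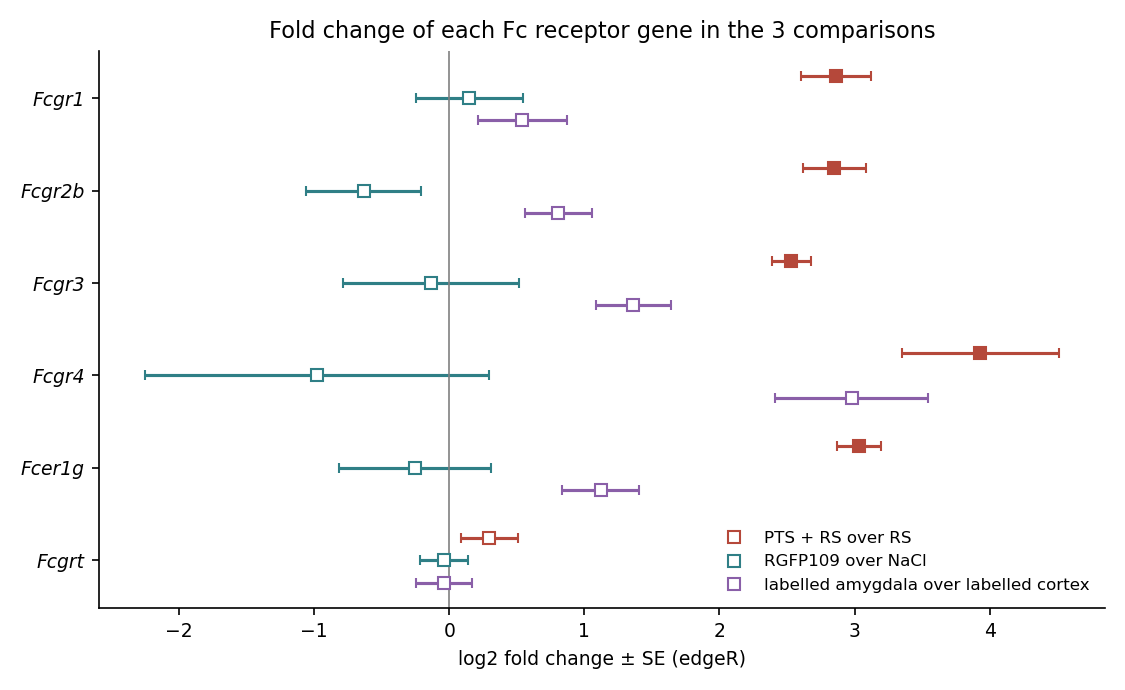
Log2 fold change with its standard error (x axis) of each Fc receptor gene (rows) in PTS + RS over RS, RGFP109 over NaCl, and libraries labelled amygdala over those labelled cortex, fitted by edgeR; filled squares are past the threshold. All 5 filled squares belong to PTS + RS over RS, and Fcgrt lies within 0.30 of 0 in each comparison.

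The same 4 libraries were compared by their tissue labels with treatment as a term. No gene passed (0.0% higher and 0.0% lower by edgeR, with 1607 at an unadjusted p under 0.05 and 154 higher and 53 lower by DESeq2). Every library labelled amygdala lay above every library labelled cortex for Fcgr1, Fcgr2b, Fcgr3, Fcgr4 and Fcer1g, as for 21.6% of all genes tested, and not for Fcgrt. The log2 fold change was 2.98 ± 0.57 for Fcgr4 (edgeR adjusted p = 0.37), 1.36 ± 0.28 for Fcgr3 (0.38), 1.12 ± 0.28 for Fcer1g (0.44), 0.81 ± 0.25 for Fcgr2b (0.47), 0.54 ± 0.33 for Fcgr1 (0.73) and -0.04 ± 0.20 for Fcgrt (0.98). With 1 library left out, which left no test, the values ranged from 2.69 to 3.20 for Fcgr4, 1.01 to 1.71 for Fcgr3, 0.83 to 1.41 for Fcer1g, 0.78 to 0.83 for Fcgr2b, 0.47 to 0.62 for Fcgr1 and -0.07 to -0.01 for Fcgrt. For Fcgr4 the summed counts were 76 against 8, a ratio of 7.96 with an exact 95% interval of 3.84 to 19.1 for counting error only. Fcgr4 passed the filter on low counts only through the libraries labelled amygdala, so its p-value here is a description. The tissue label coincides with the replicate number, so the label, the replicate and anything handled with it cannot be told apart.

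Other markers moved with the same split. The microglia list summed to 390 and 489 CPM in the libraries labelled cortex and to 447 and 429 CPM in those labelled amygdala. Sall1 alone made up 208 of the 489 CPM in NaCl replicate 1 and was between 23.7 and 28.2 CPM in the other 3 libraries. Of the 12 microglia genes 9 were higher at the amygdala label, with a median log2 fold change of 0.23. Border macrophage genes summed to 22.0 and 21.5 against 33.4 and 48.1 CPM, and immunoglobulin chains to 9.32 and 12.002 against 35.5 and 46.4 CPM. Cd4 averaged 0.329 against 11.1 CPM and Igkc 0.124 against 4.58 CPM (edgeR adjusted p = 0.19 and 0.33). Both genes passed the filter on low counts only through the libraries labelled amygdala, so these p-values are descriptions. The activating signalling genes had a median log2 fold change of 0.51 and the inhibitory ones of 0.14. Their part in the levels of the Fc receptors was not tested.

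Set side by side and without a test, since both tables were normalised separately and the experiments were run apart, 4 of the 6 genes (Fcgr1, Fcgr2b, Fcgr3 and Fcer1g) were lower in both NaCl libraries, which are from PTS + RS mice, than in both PTS + RS libraries of the first experiment. The share of all genes that were lower in this way was not taken, so the count is a description and no result about these genes. Fcer1g was at 7.27 FPKM in the NaCl library labelled cortex and at 19.5 FPKM in that labelled amygdala, against 45.0 and 52.7 FPKM in PTS + RS and 5.25 and 6.66 FPKM in RS. Fcgr3 was at 4.82 and 16.0 FPKM with NaCl, against 21.9 and 23.1 FPKM in PTS + RS and 3.48 and 4.34 FPKM in RS. Fcgr4 was at 0.224 and 2.11 FPKM with NaCl, the latter above the 1.80 and 1.94 FPKM of PTS + RS. Fcgrt was higher in both NaCl libraries, at 11.0 and 10.6 FPKM, than in the first experiment, at 6.28 to 10.3 FPKM.

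Across the 8 libraries, the genes whose log2 CPM followed the members most closely were found among 16947 genes tested in both tables; the points share 2 experiments and 4 groups, and the coefficients are descriptions. Fcer1g was closest to Fermt3, Lgmn and Lcp1 (Pearson's r of 0.997, 0.993 and 0.993). Fcgr3 was closest to Icam1, Tmem119 and Vsir (0.996, 0.992 and 0.992), and Fcgr2b to Gsdmd, H2-K1 and Siglec1 (0.996, 0.992 and 0.991). Fcgr1 was closest to AU020206, Lcp2 and Tlr2 (0.992, 0.992 and 0.990), and Fcgr4 to Ccl6, Ankrd13a and Ly9 (0.990, 0.985 and 0.984). In PTS + RS over RS, all of these 15 genes but Ankrd13a, at a log2 fold change of 0.49, were past the threshold, from 1.06 for Tmem119 to 4.32 for Siglec1. They were picked for following the members over these same libraries, so that count was largely set by the choice and is a description. Over all genes tested, 2.12% passed with a higher level. Fcgrt was closest to Lamb3, Gm7902 and Rragc (0.980, 0.973 and 0.962), none of which passed. Among the members themselves, r was between 0.816 (Fcgr1 with Fcgr4) and 0.976 (Fcgr1 with Fcer1g) for the 5 IgG receptor genes and at most 0.539 for Fcgrt with any other.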

How the data were processed

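RNA was extracted with Trizol, and 8 libraries were sequenced. Per the labels and the study's methods, the authors aligned reads to GRCm38 (mm10) with STAR 2.4.0 and counted reads per gene with HTSeq 0.6.1; the strand setting is not given in the sources used here. The authors deposited raw counts per gene and FPKM, which equal the count divided by gene length and by 1 factor per library. The authors' fold changes and p-values, group means and 8 columns of normalised values were not used. Genes of the second table were matched to the first by position, and its counts carry no identifiers.

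Counts were filtered with filterByExpr, normalised by TMM and tested by edgeR 4.0.16 (R 4.3.3) with its quasi-likelihood test and Benjamini-Hochberg adjustment over all genes tested (17581 and 17565). The threshold was an adjusted p below 0.05 together with a log2 difference of 1 or more in either direction. RGFP109 was compared with NaCl without a tissue term, and the tissue labels with a treatment term. Log2 CPM used a prior count of 2. Alternatives used DESeq2 1.42.0 and limma 3.58.1, the latter also on log2(FPKM + 1) and log2(FPKM + 0.1). The test was checked on simulated counts with known changes, at the spread of the PTS + RS and RS libraries (common biological coefficient of variation 11.4%). The RGFP109 and NaCl libraries varied more (32.1%), so the check does not cover the spread of that comparison. Sequences are from GENCODE M21 and RefSeq; all 6 genes matched.

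The 6 genes and the 20 gene lists were chosen with earlier results of these data known. In the lists other than cell types, the genes named are those past the threshold and up to 3 others of the highest mean count; in cell type lists, mainly those of the highest mean count or past the threshold. For each Fc receptor gene the 3 genes most like it are named. A few genes that these rules name are not reported here. Python 3.11.15, pandas 2.3.3, scipy 1.17.1 and matplotlib 3.10.9 were used for summaries and figures.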

Additional observations from a re-analysis of the deposited data

Results flagged for a closer look

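The direction of RGFP109 against NaCl differed between the tissue labels for 2 Fc receptor genes. The log2 ratio of RGFP109 over NaCl for Fcgr3 was 0.37 in the libraries labelled cortex and -0.33 in those labelled amygdala. For Fcer1g it was 0.14 and -0.44. Each ratio compares 1 library with 1 library, and the difference between the labels was not tested. Opposite signs at both labels were found for 51.3% of the 17565 genes tested.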

How the results depend on the processing

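The 5 calls among the Fc receptors in PTS + RS over RS held under RLE size factors, DESeq2, limma-voom, no filter on counts, both FPKM scales and a replicate block, and numbered 4 to 5 when 1 library was left out, since Fcgr4 fell short without RS replicate 1. Over all genes tested in that comparison, 373 were higher and 16 lower. The counts were 407 and 35 by DESeq2, 604 and 155 without a filter, 184 and 16 with log2(FPKM + 1), and 260 and 25 with log2(FPKM + 0.1). With 1 library left out they ranged from 197 to 637 higher and from 7 to 190 lower, the lower counts without RS replicate 1 or 2 and the higher ones without PTS + RS replicate 1 or 2.

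Same-numbered libraries of PTS + RS and RS shared only a number (correlation of deviations 0.035), and the replicate block gave 443 higher and 32 lower there. For RGFP109 and NaCl the number coincides with the tissue label (correlation 0.30), and the block changed no call; the log2 fold change of Fcgr3 was then 0.0092, and that of Fcgr2b was -0.64 with an unadjusted p of 0.052 by edgeR. No Fc receptor passed the threshold in RGFP109 over NaCl or between the tissue labels under any alternative with a test. Over all genes, RGFP109 over NaCl gave 0 to 8 lower with 1 library left out, the 8 without NaCl replicate 2. The tissue labels gave 154 higher and 53 lower by DESeq2, 187 and 53 without a filter, and 3 higher with log2(FPKM + 1); leaving out 1 library there left no test. The log2 fold change of Fcgr3 in RGFP109 over NaCl turned to 0.054 by limma-voom, 0.011 with log2(FPKM + 1) and 0.028 with log2(FPKM + 0.1). With 1 library left out it ranged from -0.75 to 0.98, that of Fcer1g from -0.80 to 0.63, of Fcgr1 from -0.13 to 0.50 and of Fcgr4 from -2.91 to 1.39. Each of these fits leaves 1 group with 1 tissue label, so treatment and label cannot be told apart in them. Against the reference of 5 microglia genes, the relative difference of Fcer1g was 1.66 instead of 1.49. The causes of these changes were not tested. Of the depth-limited values, the 1 and 4 counts of Fcgr4 in RS set the width of its interval.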

Other observations

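Fcgrt stayed within 13.3 to 23.4 CPM in all 8 libraries while B2m, which encodes its light chain, ranged from 52.4 CPM in RS to 236 CPM in PTS + RS. The kinase chain below the receptors was uneven in size: the log2 fold change of Fgr was 3.51 and that of Syk 1.16, and the difference between these genes was not tested.

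Beside Fcer1g, Tyrobp was the other signalling adaptor of its kind that was tested, at 43.6 to 49.9 CPM in PTS + RS against 39.5 to 46.5 CPM for Fcer1g. In RS both lay between 4.61 and 6.84 CPM. In the second experiment Tyrobp averaged 24.1 CPM in the libraries labelled amygdala and 7.37 CPM in those labelled cortex, beside 14.9 and 6.77 CPM for Fcer1g, and neither passed the threshold.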
